A study of Mus musculus with 20 samples.

Results

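The cells described here are the macrophages of mouse kidneys, taken as every cell that the authors' annotation of 18 single-cell libraries names Macro. They number 7601 of 113579 cells, or 6.69%, and 235 of them came from control kidneys, 3933 from kidneys after short ischemia and 3433 after long ischemia. The mice were male C57Bl/6J, 10 to 12 weeks old. Both renal pedicles were clamped for 23 min (IRI short) or 30 min (IRI long), and kidneys were taken 1, 3 or 14 d later, which gave 2 libraries per combination, beside 6 control libraries. For the inhibitor experiment there was 1 library of IRI long with VX765 (VX-765, a caspase-1 inhibitor, 100 mg/kg) and 1 of IRI long with Liproxstatin (a ferroptosis inhibitor, 10 mg/kg), both at 14 d. The inhibitors were injected intraperitoneally in DMSO and sesame oil 30 min before ischemia and every 24 h for 14 d. They were given in a separate, later set of experiments, whereas the IRI long 14d libraries set beside them come from the first, and the labels of the latter name no vehicle. Inhibitor and experiment therefore cannot be told apart. For the inhibitor libraries, the cells named Macro in the authors' second annotation were used, which covers 20 libraries with 136794 cells and names 8330 of them Macro. Libraries are called by the names that their cell names carry (IRF3, norm5 and so on).

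Kidney macrophages are resident phagocytes that lie between the tubules and vessels, clear dead cells and debris, and signal to the epithelium. After ischemic injury, monocytes enter from the blood together with neutrophils, and some of them turn into macrophages. The markers that go with this cluster are C1qa and C1qb, which encode chains of the complement component C1q that tissue macrophages produce. The tables used here hold a cluster name, a group and a map position for each cell and no expression values, so the name Macro was not checked against C1qa, C1qb or any other gene, and resident and monocyte-derived cells were not told apart. The clusters closest to Macro by name are Mono_1 and Mono_2 (monocytes), which with Macro are called mononuclear phagocytes here, and Granul_1 and Granul_2 (granulocytes). Macro, monocytes and granulocytes together are the myeloid cells, and with T cell_1, T cell_2 and B cell they are the 8 immune clusters.

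Libraries held 2064 to 14320 cells, which sets the counting error of a cell fraction. A count of 0 in a library allows a share of up to 0.145% of all cells in the smallest library and up to 0.0209% in the largest. No more than 2.40% of all cells had a barcode that also occurs in another of the 18 libraries, and among the Macro cells 159 did (2.09%), of which 22 met another Macro cell. Barcodes set 5 of the 6 control libraries apart. Pairs of them shared 9 to 128 barcodes and at most 10 with the others. Pairs among the control library norm5, the 12 libraries of injured mice and both inhibitor libraries shared 1 to 41. Barcode set and injury therefore cannot be told apart in those 5 libraries, and differences from norm5 alone, or its own level, are given beside the permutation comparisons of shares with control. P-values measure the spread between libraries, each taken as 1 mouse.

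Macro cells were rare in control kidneys. Their share of all cells was 0.258% in Scl, 1.67% in norm1, 0.666% in norm2, 0.308% in norm3, 0.345% in norm4 and 1.01% in norm5. The highest of these was 6.47 times the lowest, and the counts behind them ran from only 7 cells in norm3 to 67 in norm5. By size, Macro ranked from 2 to 6 among the 8 immune clusters in control, from 1 to 3 in IRI short and from 1 to 4 in IRI long.

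After ischemia the Macro share of all cells was higher in every library than in any control library. One day after short ischemia it was 7.08% in IRF2, and one day after long ischemia 7.13% in IRF1 and 6.83% in IRF5. At 3 d it was 15.2% in IRF11 and 13.3% in IRF3 (IRI short), and 15.3% in IRF4 and 14.3% in IRF7 (IRI long). At 14 d it was 10.1% in IRF10 and 12.9% in IRF8 (IRI short), and 9.22% in IRF12 and 10.9% in IRF9 (IRI long). The 4 libraries of each day did not overlap with those of the other days, and at each day the values for the 2 ischemia times lay side by side. Within a group the exact 95% binomial (Clopper-Pearson) intervals of both libraries, which cover counting error only, overlapped in 4 of 6 groups.

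**Figure D1:**
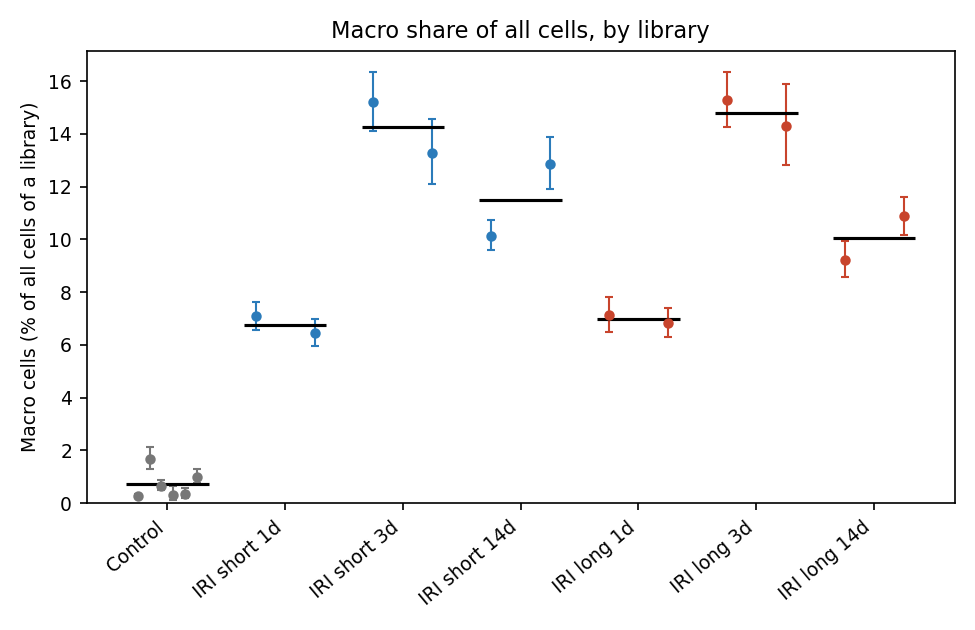
Macro cells in percent of all cells of a library (vertical axis) for control and each ischemia time and day (horizontal axis). Each point is 1 library with its exact 95% binomial interval, and the black line is the group mean. The 3 d libraries of both ischemia times sit between 13.3 and 15.3%, above the 1 d libraries (6.45 to 7.13%) and the 14 d libraries (9.22 to 12.9%), and all control libraries lie at 1.67% or lower.

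The mean share was 0.709% ± 0.550 in control. It was 10.8% ± 3.55 after short ischemia and 10.6% ± 3.57 after long ischemia (SD, n = 6 each). The difference from control was 10.1 percentage points for IRI short and 9.89 for IRI long, each with p = 0.00216 in a two-sided exact permutation test over libraries (adjusted p = 0.013 over 12 comparisons), the smallest value that 6 against 6 libraries allow. These means are 15.3 and 14.96 times that of control. Against norm5 alone, which has the barcode set of the injured libraries, they are 10.8 and 10.6 times as high. IRI long and IRI short differed by -0.231 percentage points (exact permutation within days, p = 0.759, adjusted p = 0.828), less than the spread between libraries.

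On the logit scale (the log of the share over its complement, with 0.5 cells added), the share of every cluster was compared with limma and adjusted over 18 clusters. Macro was 3.00 higher in IRI short than in control (standard error 0.29, limma adjusted p = 2.57e-08) and 2.98 higher in IRI long (standard error 0.29, adjusted p = 2.90e-08). In these comparisons 66.7% and 83.3% of the clusters changed, so a change against control is common among clusters here. By size of the rise Macro came after Granul_2, Granul_1 and Mono_2 in IRI short, and after both granulocyte clusters in IRI long. With the barcode set as a term the changes were 2.43 and 2.40. In that fit the barcode term absorbed the other 5 control libraries. Both changes therefore rested on norm5 alone, and no p-value is given.

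In limma, Macro differed from control at each day in both ischemia times. At 1 d the change was 2.53 in IRI short and 2.57 in IRI long, at 3 d 3.36 and 3.40, and at 14 d 3.11 and 2.96, with limma adjusted p of 3.16e-05 or lower. In the fit with the barcode set as a term these changes rested on norm5 alone, and no p-value is given. They were 1.96 and 1.99 at 1 d, 2.79 and 2.83 at 3 d, and 2.54 and 2.39 at 14 d. With centred log-ratios the changes were 1.37 and 1.51 at 1 d, 1.94 and 2.01 at 3 d, and 2.07 and 2.28 at 14 d (limma adjusted p of 0.00517 or lower). The share of clusters that changed against control was 55.6% in IRI short and 61.1% in IRI long at 1 d, 72.2% and 88.9% at 3 d, and 55.6% and 72.2% at 14 d.

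Between the ischemia times, Macro did not pass the threshold at any day. The change from IRI short to IRI long was -0.02 over the 3 days (95% confidence interval -0.63 to 0.58, limma adjusted p = 0.939), where 27.8% of clusters changed. At 1 d it was 0.03 (interval -1.01 to 1.08), at 3 d 0.05 (upper bound 1.09) and at 14 d -0.15 (-1.20 to 0.90). The intervals at single days allow changes of about 1 in either direction. The share of clusters called at those days was 5.56%, 0% and 33.3%. At 3 d limma called 0 of 18 clusters, and 3 had an unadjusted p under 0.05.

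With time, the mean share of the 4 injured libraries of a day was lowest at 1 d (6.87%), highest at 3 d (14.5%) and 10.8% at 14 d. In limma the change from 1 d to 3 d was 0.83 (95% confidence interval 0.09 to 1.57), which missed the threshold after adjustment over clusters (limma adjusted p = 0.0895), while 5.56% of clusters passed. On the arcsine square root scale this comparison passed (limma adjusted p = 0.000144), and it also passed on the logit scale without the control library norm1 (adjusted p = 0.0476). From 1 d to 14 d the change was 0.49 (-0.26 to 1.23, adjusted p = 0.329, with 33.3% of clusters called) and from 3 d to 14 d -0.35 (-1.09 to 0.39, adjusted p = 0.476, with 22.2% called). Both passed on the arcsine scale (adjusted p = 0.00525 and 0.0218). With centred log-ratios the change from 3 d to 14 d turned to 0.20 (limma adjusted p = 0.724). Within immune cells the change from 1 d to 3 d was 0.46 (limma adjusted p = 0.450) and that from 1 d to 14 d was 0.12 (adjusted p = 0.775). In exact permutation tests of 4 against 4 libraries, each of the 3 pairs of days gave p = 0.0286, the smallest that 70 regroupings allow, and an adjusted p of 0.0714 over 15 comparisons. The change from 1 d to 14 d did not pass the threshold for a difference between the ischemia times (-0.18, interval -1.67 to 1.30, limma adjusted p = 0.856, with 11.1% of clusters called).

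The 3 d libraries were small. They held 2064 to 4784 cells in all, whereas the other injured libraries held 4518 to 10917, and the number of Macro cells was 295 to 731 at 3 d and 435 to 1107 at the other days. The part of library size in the higher share at 3 d was not tested, and a share cannot tell more macrophages from fewer other cells. Without granulocytes in the denominator, the share was still lowest at 1 d (7.48 to 10.6%). It was 14.99 to 20.0% at 3 d and 11.4 to 19.1% at 14 d.

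Within the immune cells, the ischemia times came apart. Macro cells made up 17.6 and 17.1% of immune cells at 1 d after short ischemia, 24.2 and 25.0% at 3 d, and 24.2 and 22.4% at 14 d. After long ischemia they made up 11.8 and 16.4% at 1 d, 21.2 and 20.4% at 3 d, and 11.4 and 13.8% at 14 d. No IRI long library reached the lower IRI short library of its day, with the widest gap at 14 d (-10.7 percentage points between the means). With 2 libraries a group no permutation test was made at single days, and the limma value for 14 d is given below. In control the share ran from 2.38% in norm3 to 21.4% in norm1.

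Over all days Macro cells were 21.7% ± 3.51 of immune cells after short ischemia and 15.8% ± 4.23 after long ischemia (SD, n = 6 each), a difference of -5.92 percentage points (exact permutation within days, p = 0.00926, adjusted p = 0.0222), the smallest p that regrouping within days allows. Without regard to day the adjusted p was 0.0606. Of the myeloid cells Macro made up 32.6% ± 9.25 after short and 19.8% ± 6.53 after long ischemia (SD, n = 6 each), a difference of -12.8 points (exact permutation within days, adjusted p = 0.0222, and 0.0519 without regard to day). In limma with shares taken within immune cells, the change from IRI short to IRI long was -0.41 over all days (95% confidence interval -1.11 to 0.29, adjusted p = 0.307) and -0.75 at 14 d (-1.96 to 0.47, adjusted p = 0.382). In both comparisons limma called 0% of the 8 immune clusters, with 3 and 1 at an unadjusted p under 0.05.

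**Figure D2:**
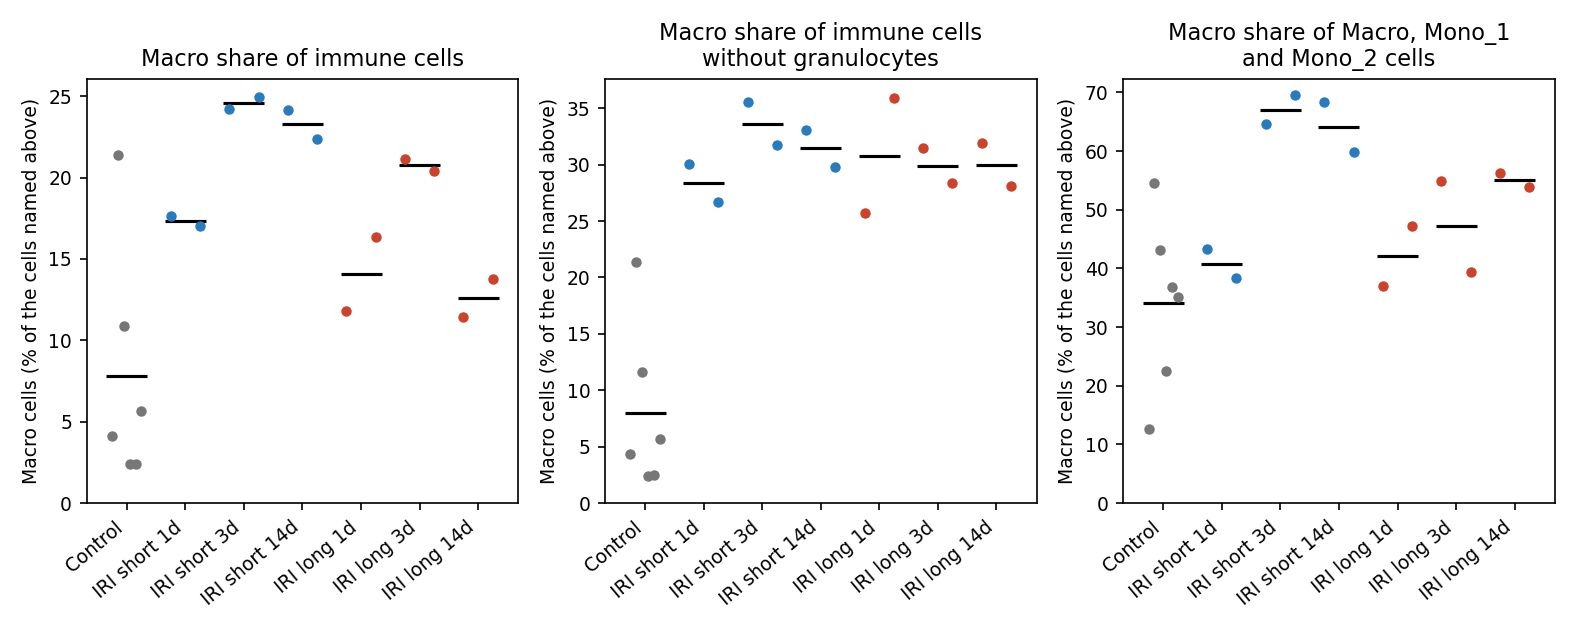
Macro cells in percent of immune cells (left), of immune cells without granulocytes (middle), and of Macro, Mono_1 and Mono_2 cells together (right), by ischemia time and day (horizontal axis). Points are libraries and black lines group means. In the left panel the IRI long mean of each day lies below that of IRI short, whereas in the middle panel the injured libraries of all groups lie between 25.7 and 35.9%.

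Granulocytes, short-lived phagocytes that enter injured tissue from the blood, had a higher mean share of all cells after long than after short ischemia at each day. The means for IRI short and IRI long were 15.1 and 27.7% at 1 d, 15.7 and 21.6% at 3 d, and 12.8 and 46.0% at 14 d. They were 11.3 to 20.0% of all cells in IRI short and 19.6 to 51.7% in IRI long, with the highest values in the 14 d libraries IRF12 (51.7%) and IRF9 (40.4%). There were 0.426 to 1.16 Macro cells for each granulocyte in IRI short and 0.178 to 0.728 in IRI long. When granulocytes were left out of the denominator, a choice made after the values were seen, Macro cells were 31.2% ± 3.04 of the remaining immune cells after short and 30.2% ± 3.63 after long ischemia (SD, n = 6 each). The difference was -0.914 percentage points (exact permutation within days, p = 0.685). At 14 d the values were 33.1 and 29.8% in IRI short and 31.9 and 28.1% in IRI long, and the groups overlapped.

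Measured this way the days were not told apart either. The mean over the 4 injured libraries ran from 29.6% (1 d) to 31.8% (3 d), with 30.7% at 14 d, and the 3 pairs of days gave exact permutation p of 0.457 to 0.686. The control libraries had 7.98% ± 7.38 (SD, n = 6), with norm1 at 21.4%, norm5 at 5.68% and the others at 11.6% or lower, and all 12 injured libraries were above all of these. The difference from control was 23.2 percentage points in IRI short and 22.3 in IRI long (exact permutation, p = 0.00216 each). Relative to all cells but granulocytes, in contrast, Macro cells were 15.8% ± 4.77 in IRI long and 12.7% ± 4.40 in IRI short (SD, n = 6 each), a difference of 3.03 points (exact permutation within days, p = 0.0278, adjusted p = 0.0476). In limma this measure did not pass (0.26 on the logit scale, 95% confidence interval -0.33 to 0.84, adjusted p = 0.601). For the share of all cells, the sign of the comparison between ischemia times differed with and without granulocytes, while for immune cells it was negative in both.

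Against control, the Macro share of immune cells was higher by 13.9 percentage points in IRI short (exact permutation, p = 0.00649, adjusted p = 0.0222) and by 8.01 points in IRI long (p = 0.0498, adjusted p = 0.0853). Without the control library norm1 the IRI long difference was 10.7 points (adjusted p = 0.00866). Against norm5 alone the differences were 16.1 and 10.2 points, with no test. In limma within immune cells both comparisons passed, with changes of 1.48 (adjusted p = 0.000587) and 1.07 (adjusted p = 0.00712), as did 75% and 87.5% of immune clusters. Of the myeloid cells, Macro made up 31.3% ± 14.5 in control (SD, n = 6), so the share in IRI short differed by 1.32 points (exact permutation, p = 0.864) and that in IRI long by -11.5 points (p = 0.0996). Leaving out 1 library gave -2.78 (without Scl) to 5.96 points (without norm1) for IRI short. For IRI long it gave -15.6 (without Scl, past the threshold with adjusted p = 0.026) to -6.86 points (without norm1). Against norm5 alone the differences were -1.55 and -14.4 points. Control kidneys held few myeloid cells of any kind, and in the first annotation norm1 and norm3 held no granulocyte. The second annotation puts 3 and 4 of their cells in neutrophil clusters.

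Set against the monocytes alone, Macro cells held a larger share in each 14 d library than in any 1 d library. At 1 d they were 43.3 and 38.3% of mononuclear phagocytes in IRI short and 37.0 and 47.1% in IRI long. At 3 d they were 64.6 and 69.5% in IRI short, and 54.9% in IRF4 and 39.4% in IRF7 in IRI long. At 14 d they were 68.3 and 59.9% in IRI short and 56.3 and 53.9% in IRI long. Macro cells thus outnumbered both monocyte clusters in 7 of the 12 injured libraries, in all those of 3 and 14 d but IRF7, where Mono_1 made up 20.8% of all cells.

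The mean over the 4 libraries of a day was 41.4% (1 d), against later values of 57.1% (3 d) and 59.6% (14 d). The 14 d and 1 d libraries did not overlap (difference 18.2 percentage points, exact permutation, p = 0.0286, adjusted p = 0.0714), and the 3 d and 1 d libraries did (15.7 points, p = 0.0857). IRI short had 57.3% ± 13.3 and control 34.1% ± 14.8 (SD, n = 6 each, difference 23.2 points, exact permutation, p = 0.0152, adjusted p = 0.0303). The adjusted p of this comparison rose above 0.05 in 8 of the 12 fits that left out 1 library. IRI long had 48.1% ± 8.33 (SD, n = 6), which passed neither against control (adjusted p = 0.0981) nor against IRI short (-9.20 points, adjusted p = 0.0972, exact permutation). Against norm5 alone, IRI short differed by 22.2 points and IRI long by 13.0. Leaving out norm1 brought IRI long against control past the threshold (18.1 points, adjusted p = 0.0334), and leaving out IRF5 brought IRI long against IRI short past it (-10.9 points, adjusted p = 0.0317).

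**Figure D3:**
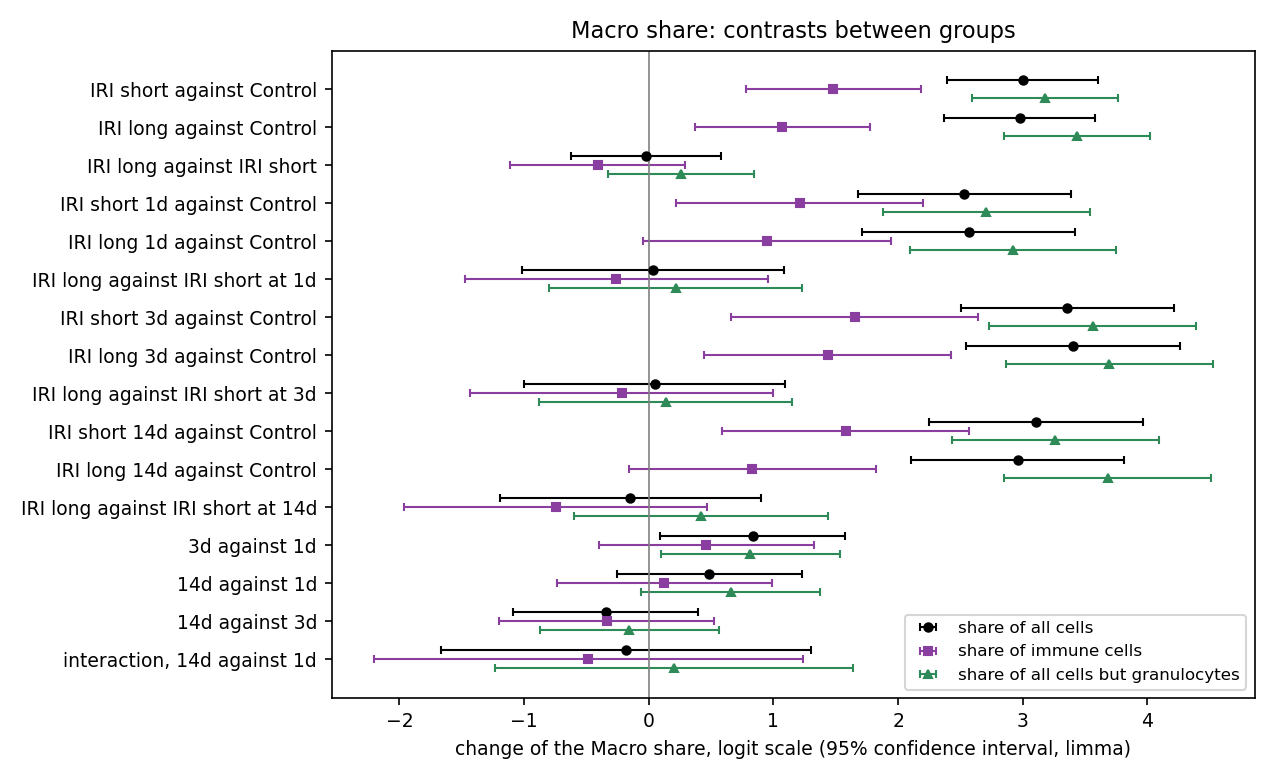
Change of the Macro share on the logit scale (horizontal axis) for each contrast (vertical axis), with 95% confidence intervals from limma. Circles are shares of all cells, squares shares of immune cells, and triangles shares of all cells but granulocytes. Changes against control lie above 0 in all 3 measures, but for immune cells the intervals of IRI long at 1 d (-0.04 to 1.94) and 14 d (-0.16 to 1.82) include 0. The intervals for IRI long against IRI short include 0 in every measure.

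On the authors' UMAP, Macro cells lay mostly beside other Macro cells. Clusters and map were made from the same integrated data, so this closeness is no independent support for the name. Of the 30 nearest cells of a Macro cell, 98.9% were Macro as well and 1.06% were Mono_1, and no other cluster reached 0.05%. No cluster but Macro therefore held 5% of the neighbours, and Mono_2 and the granulocyte clusters held none. The libraries had been aligned before the map was drawn, so position in it is not a measure of expression.

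The Macro share of neighbours was 98.2% ± 1.45 in control libraries, 99.0% ± 0.185 after short and 99.0% ± 0.365 after long ischemia (SD, n = 6 each), and none of the 3 comparisons passed (exact permutation, adjusted p = 0.831 for each against control and 0.974 between the ischemia times). On the map of all 20 libraries the difference of IRI short from control was 2.21 percentage points (exact permutation, adjusted p = 0.026) and that of IRI long from control 2.10 points (adjusted p = 0.0779). IRI long and IRI short differed by -0.117 points there (adjusted p = 0.974). Macro cells of other injured libraries were also counted within 0.5 map units of each Macro cell. Counts were divided by the Macro cells of the library and averaged within each of the 6 groups of ischemia time and day, leaving out the cell's own library. The cell's own group made up 15.9 to 17.8% of the sum of the 6 group averages in each library, where equal averages give 16.7%.

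In the authors' second annotation, which adds the inhibitor libraries, 7265 of the 7601 Macro cells (95.6%) were again named Macro. The share of a library's Macro cells that kept the name was 95.2% ± 6.75 in control libraries, 95.5% ± 4.37 after short and 95.1% ± 2.82 after long ischemia (SD, n = 6 each), with no difference past the threshold (exact permutation, adjusted p = 0.974 for each of 3 comparisons). The second Macro cluster held 7713 cells of these libraries. Of these, 213 came from Mono_1 (2.76%) and 156 from T cell_2 (2.02%). The Macro share of a library moved by at most 1.07 percentage points between the annotations. The second annotation has no monocyte cluster. Its cluster Fibro, by name a fibroblast cluster, held 6839 monocytes of the first annotation among 7059 cells (96.9%), and it is treated below as the monocyte side of the comparison.

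No single other name took 5% of the Macro cells, but the largest, SMC (168 cells, 2.21%), was unevenly spread over days. It was looked at because of these values and was not tested. At 3 d the share of Macro cells named SMC was 4.35% in IRF11, 12.7% in IRF3, 5.47% in IRF4 and 6.44% in IRF7. At 14 d it was 0.615 to 1.20%. At 1 d it was 0.230 and 0.187% after long ischemia, while none of the 671 and 559 Macro cells after short ischemia had this name, which allows a share of up to 0.447 and 0.537%. In the 6 control libraries together 3 Macro cells had it. The 3 d libraries thus contributed 136 of the 168 cells, or 81.0%.

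This name is not one for macrophages, and other cells took it at 3 d too. Of the 1075 SMC cells in these libraries, 286 had been Myofib (myofibroblasts), 279 T cell_2, 182 T cell_1 and 168 Macro. SMC made up 2.03 to 4.85% of all cells in the 3 d libraries and 0.222 to 1.37% in the other libraries. Among the T cells the share named SMC was 4.52 to 11.5% in the 3 d libraries, 0.980 to 5.11% at 1 and 14 d and 1.58 to 9.91% in control. Which genes these cells have in common was not analysed here.

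**Figure D4:**
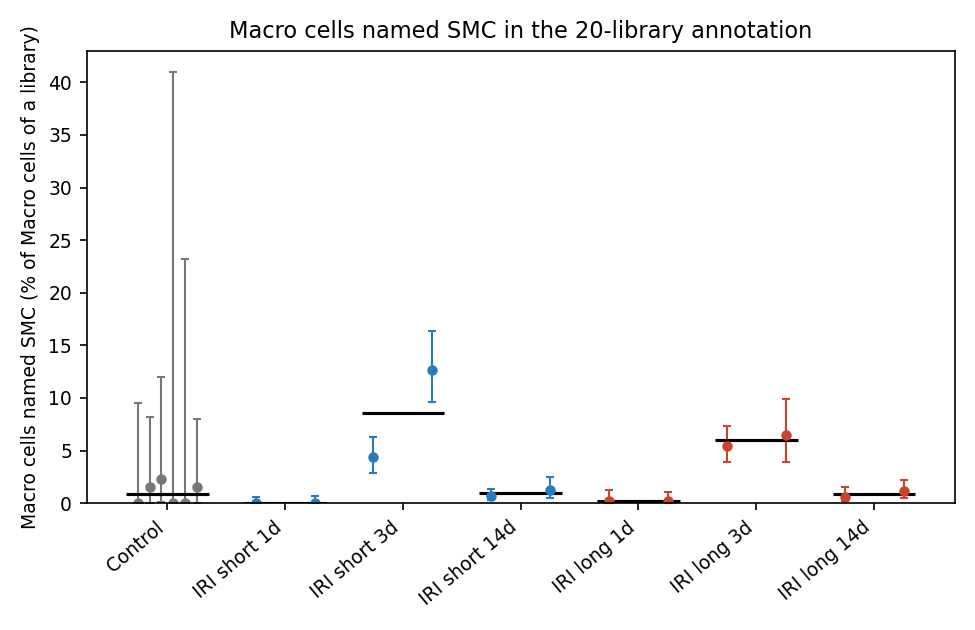
Share of the Macro cells of a library that the second annotation names SMC, in percent (vertical axis), by ischemia time and day (horizontal axis). Points are libraries with exact 95% binomial intervals and black lines are group means. The 3 d libraries lie at 4.35 to 12.7% and the other injured libraries at 1.20% or lower, while the wide control intervals reflect counts of 7 to 67 Macro cells.

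With inhibitors, the Macro share of all cells at 14 d after long ischemia was lower than without. It was 9.39% in IRF12 and 10.8% in IRF9 without inhibitor, 5.02% with VX765 (exact 95% interval 4.62 to 5.46%, 533 of 10610 cells) and 0.666% with Liproxstatin (0.532 to 0.824%, 84 of 12605 cells). Control libraries had 0.244 to 1.75% in this annotation. The value with VX765 lay between control and IRI long 14d, at 0.497 times the mean of the latter, and that with Liproxstatin was within the range of the control libraries, at 0.0659 times. There was 1 library for each inhibitor, so no test was made, and intervals cover counting error only.

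The make-up of these libraries differed in other ways. All immune cells were 13.9% of the VX765 library and 6.25% of the Liproxstatin library, against 73.3 and 82.1% in IRI long 14d and 4.86 to 14.3% in control. Proximal tubule clusters (PCT, PST and PT) made up 58.8 and 82.6%, against 5.11 and 11.2% in IRI long 14d and 34.9 to 66.7% in control. The neutrophil clusters held 2.69 and 0.635% of all cells, against 40.3 and 55.6% in IRI long 14d and 0.0750 to 0.393% in control. Relative to all cells but the proximal tubule clusters, Macro cells were 12.2% with VX765 and 3.83% with Liproxstatin, 9.90 and 12.2% in IRI long 14d and 0.609 to 3.64% in control. The lower Macro share with VX765 was thus not seen with this denominator, which was chosen after the data were seen.

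Within the immune cells the VX765 library and the Liproxstatin library differed, with 1 library each and no test. Macro cells were 36.2% of the immune cells with VX765 (exact interval 33.7 to 38.7%) and 10.7% with Liproxstatin (8.59 to 13.0%), compared with 11.4 and 14.8% in IRI long 14d and 3.23 to 25.2% in control. The interval with Liproxstatin overlaps that of IRF12 (10.6 to 12.3%) and not that of IRF9 (13.8 to 15.8%), but these intervals leave out the spread between mice. Without the neutrophil clusters they were 44.9 and 11.9%, compared with 32.8 and 35.4% in IRI long 14d and 3.28 to 25.5% in control. Of Macro and Fibro cells together, Macro made up 70.3% with VX765 (66.9 to 73.6%) and 37.3% with Liproxstatin (31.0 to 44.0%), 55.1 and 57.8% in IRI long 14d and 11.7 to 60.0% in control. For each cell of a neutrophil cluster there were 1.87 Macro cells with VX765, 1.05 with Liproxstatin, 0.169 and 0.269 in IRI long 14d and 0.729 to 23 in control. Both inhibitor ratios and the Liproxstatin share of immune cells thus lay within the control range, and the VX765 share of immune cells lay above it. The VX765 library thus had fewer Macro cells per cell of the library than IRI long 14d and more of them per immune cell, and the Liproxstatin library was below IRI long 14d in the shares of all cells, of immune cells and of Macro and Fibro cells.

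**Figure D5:**
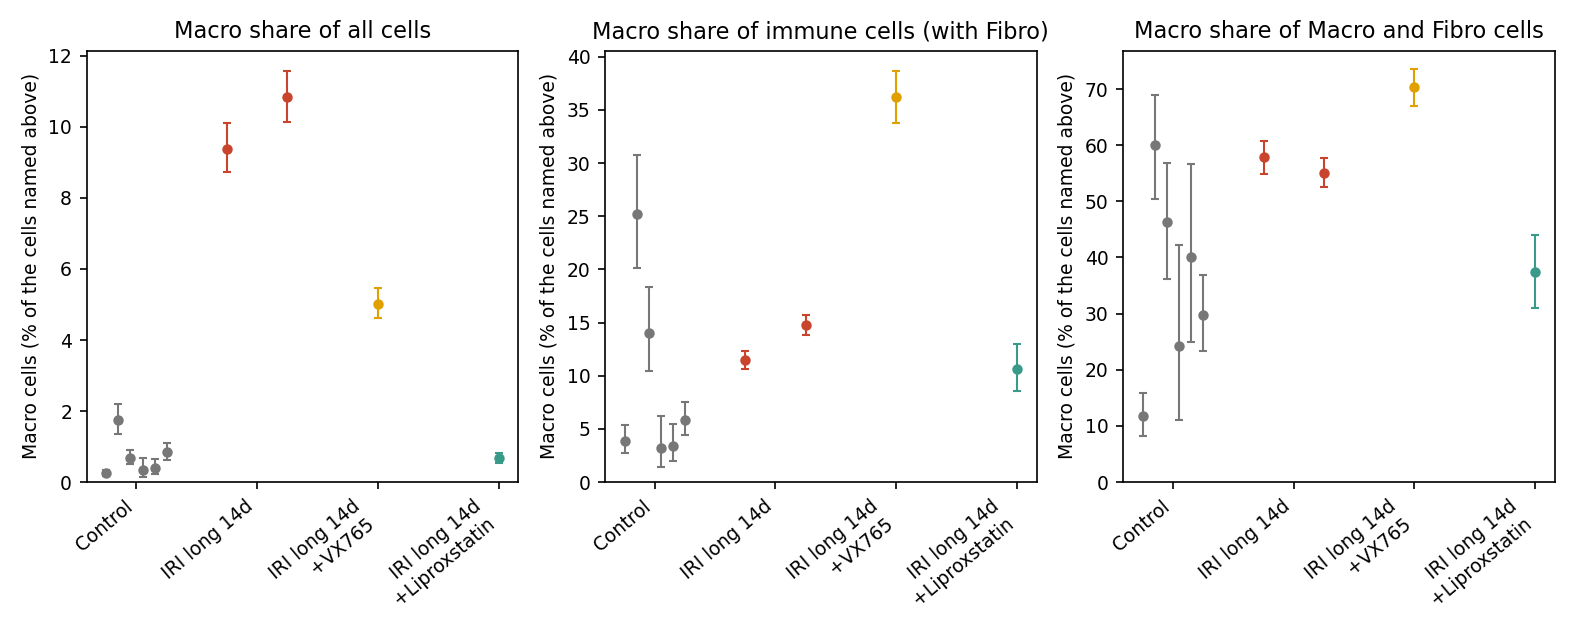
Macro cells in percent of all cells (left), of immune cells with Fibro counted among them (middle) and of Macro and Fibro cells (right) in the second annotation, for control, IRI long 14d and the inhibitor libraries (horizontal axis). Points are libraries with exact 95% binomial intervals. VX765 lies below IRI long 14d in the left panel (5.02%) and above it in the others (36.2 and 70.3%), and Liproxstatin lies below it in all panels.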

How the data were processed

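Single-cell RNA-seq libraries of mouse kidney were made by the authors on the 10X platform. According to the methods, reads were aligned to mm10 with Cell Ranger, cells with under 200 or over 3000 genes or over 50% mitochondrial reads were removed in Seurat, doublets were removed with DoubletFinder, and libraries were integrated with LIGER and clustered. The deposited tables give, for each cell, text labels (cluster name and group) and UMAP coordinates without unit. They hold no expression values, so expression was not analysed here. Ambient RNA was estimated but not corrected in the data shown. The methods describe the 18-library annotation only. For the 20-library annotation the same filters and integration are stated, with a number of cells other than that in the table.

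Each library was identified by the prefix of its cell names and assigned to a group by the labels of its cells, not to a replicate number. Shares of Macro cells were computed per library and compared with two-sided exact permutation tests over libraries (regrouped inside each day where the ischemia times were compared), adjusted with the Benjamini-Hochberg method over 12 comparisons of shares, 6 of map and name, and 15 between days. Logit shares of all 18 clusters with 0.5 cells added were compared with limma 3.58.1 in R 4.3.3 with a mean for each of 7 groups. Its p-values were adjusted over clusters and called below 0.05, and the script was tested on simulated data. For alternatives, the p-value replaced its own in the family before adjustment. Comparisons between days and denominators without granulocytes (among immune cells, and in limma also among all cells) were chosen after the data were seen, as was the use of Fibro. The members, clusters and tests were chosen with earlier results of these data known. Clusters named besides Macro are Mono_1, Mono_2, Granul_1, Granul_2 and any with 5% of the renamed or neighbouring cells. Others are named where a value rests on them. Map neighbours were the 30 nearest cells. Precision is set by the number of cells of each library. Shares and permutations were computed in scipy 1.17.1, pandas 2.3.3 and numpy 2.4.6 under python 3.11.15, and plots drawn with matplotlib 3.10.9. The value of 1 library by name is not reported here.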

Additional observations from a re-analysis of the deposited data

Results flagged for a closer look

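In 3 of 24 sets of 6 libraries, 1 library lay far from the other 5 by Dixon's criterion at the 95% level, a criterion that chance meets in about 1 of 20 sets. In control, norm5 had the lowest share of Macro cells that kept their name in the second annotation, 82.1%, whereas the other control libraries were at 94.6% or higher. Of its 67 Macro cells 12 changed name, 5 of them to a distal tubule cluster and 3 to Fibro. In IRI short, the 3 d library IRF3 had the lowest such share, 86.8%, and the other libraries 95.5% or higher. In the same library 12.7% of the Macro cells were named SMC, the highest share, followed by 4.35% in IRF11, the other 3 d library of IRI short. These 2 values of IRF3 rest on the same cells, since 50 of its 52 renamed Macro cells were named SMC.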

How the results depend on the processing

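No paired analysis was possible because the cell names of the libraries carry no replicate number of the labels. Direction and side of the adjusted threshold were kept by 191 of 229 tested values under other settings and by 462 of 504 tested values without 1 library. The first count includes limma settings that could not disagree. A filter for clusters with 10 cells in 2 libraries repeated the main values. The barcode set as a term cannot move an estimate between injured groups, and against control that fit rested on norm5 alone. Of the untested values, 33 of 37 under other settings and 4 of 4 without 1 library moved by less than 1 SD. The cause of the changes was not tested, except that a day alone holds 2 injured libraries, for which 28 regroupings allow no p below 0.0357. In control, counts of 7 to 67 Macro cells limit the precision.

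The share of all cells in IRI long against IRI short turned to 0.170 percentage points with libraries thinned to the smallest, 3.03 without granulocytes, 0.107 pooled over cells, and 0.213 and 0.548 at 1 and 3 d alone. At 1, 3 and 14 d alone the differences from control were 6.06, 13.5 and 10.8 for IRI short and 6.27, 14.1 and 9.34 for IRI long. Each had an adjusted p of 0.0714 (exact permutation), the lowest possible here. No day alone could pass, here or in the other shares below. For immune cells, IRI short against control was 9.53, 16.8 and 15.5 at 1, 3 and 14 d alone (none past the threshold), IRI long against control 22.3 without granulocytes (past the threshold), and IRI long against IRI short -5.92 without regard to day, -10.7 at 14 d and -0.914 without granulocytes. For mononuclear phagocytes, IRI short against control was 20.4 after thinning and 6.68, 32.9 and 30.0 at 1, 3 and 14 d alone, none past the threshold. For myeloid cells, IRI short against control turned to -1.62 after thinning and -10.0 at 1 d, and IRI long against IRI short was -12.8 without regard to day and -21.6 at 14 d. The difference in Macro neighbours of IRI short from control was 2.21 on the 20-library map, and that in kept names turned to -0.249 with Fibro counted as kept.

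In limma, the arcsine scale brought 3 d against 1 d (0.13), 14 d against 1 d (0.0686) and 14 d against 3 d (-0.0568) past the threshold. With centred log-ratios, IRI long against IRI short turned to 0.14 and, at 14 d, 0.21, 14 d against 3 d to 0.20 and the interaction to 0.0662. Within immune cells, IRI long against control was 0.95 at 1 d and 0.83 at 14 d (neither past the threshold), and IRI long against IRI short turned to -0.26 at 1 d and -0.22 at 3 d. In the 20-library annotation it turned to -0.0197 at 1 d. Among all cells but granulocytes it turned to 0.26 and, at 14 d, 0.42, and the interaction to 0.20. Without proximal tubule cells, VX765 differed from IRI long 14d by 1.15 points and Liproxstatin by -7.22.

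Leaving out 1 library in turn gave these ranges. IRI long against IRI short was -0.684 to 0.222 for all cells, -6.68 to -5.15 for immune cells, -11.8 to -6.62 for mononuclear phagocytes (past the threshold without IRF5), -14.2 to -11.4 for myeloid cells, -0.132 to 0.0994 for neighbours and -1.91 to 0.989 for kept names. IRI short against control was 18.9 to 27.3 for mononuclear phagocytes (not past the threshold without Scl, norm3, norm4, norm5, IRF11, IRF3, IRF10 or IRF8), -2.78 to 5.96 for myeloid cells and -2.34 to 2.03 for kept names. IRI long against control was 6.92 to 10.7 for immune cells and 9.69 to 18.1 for mononuclear phagocytes (both past the threshold without norm1), -15.6 to -6.86 for myeloid cells (past it without Scl) and -2.80 to 0.779 for kept names. In limma, IRI long against IRI short was -0.0673 to 0.0223 over all days, -0.0150 to 0.0837 at 1 d and -0.0325 to 0.12 at 3 d, and 3 d against 1 d was 0.79 to 0.87.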
